A study of Mus musculus with 656 samples.

Results

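The genes of prostaglandin E synthesis were followed in 3T3 cells, an established line of mouse embryonic fibroblasts, through stimulation with an inflammatory cytokine and inhibition of the kinase IKKβ. They are the 7 genes Pla2g4a, Ptgs1, Ptgs2, Ptges, Ptges2, Ptges3 and Ptger4, chosen by name from the pathway and found among the 22070 genes of the count table by their Ensembl identifiers. All 7 are among the 10766 genes that passed the filter on low counts. RNA was measured by TagSeq, which reads the 3' ends of polyadenylated transcripts. Cells were kept for 1 h in medium with 0, 25, 50 or 100 µM SC-514, an IKKβ inhibitor, and were then given 1 ng/ml IL-1β or 10 ng/ml TNF-α for 15, 30, 60, 120 or 360 min. With 1 group that had neither stimulus nor inhibitor, this gave 41 groups of 4 libraries each. No group received SC-514 alone, and what the 0 µM groups received in its place is not stated.

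The stimulus of a library rests on labels that conflict. A number at the start of a name stands for one cytokine in the titles of the samples and for the other in their descriptions. Grouping followed the labelled stimulus and the description, so groups are called labelled IL-1β and labelled TNF-α. The label also coincides with the set of columns, and a difference between cytokines and a difference between those sets cannot be told apart. The unstimulated libraries are a set of columns of their own. Differences from them therefore cannot be told apart from differences between sets either. Nfkbiz, which encodes IκBζ and is known as a gene that IL-1β induces and TNF-α hardly does in fibroblasts, goes against the labels. At 60 min it stood at 45.9 to 59.2 CPM (counts scaled to a common library size) in the libraries labelled IL-1β and at 469 to 513 CPM in those labelled TNF-α, against 32.2 ± 7.55 CPM (SD, n = 4) in the unstimulated libraries. Directions between the cytokines below hold for the libraries as labelled.

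Library totals were 928906 to 2469454 counts, apart from 12191 in number 1 of IL-1β 50 µM 30 min and 3839 in number 1 of TNF-α 50 µM 120 min. A count of 3 in the deeper libraries corresponds to 1.18 to 3.41 CPM. The 8 fibroblast markers summed to 5299 to 8143 CPM over the groups, the 6 macrophage markers to 16.5 to 45.1 CPM, the 4 endothelial markers to 2.50 to 18.1 CPM and the 3 epithelial markers to 0 to 1.30 CPM. The 4 adipocyte markers summed to 74.9 to 231 CPM, nearly all of it Lpl. With 100 µM at 360 min, 7 of 8 fibroblast markers were called lower than at 0 µM in the libraries labelled TNF-α, where 26.8% of all genes were called in either direction. In those labelled IL-1β it was 2 of 8, where 29.5% were called. Their part in the results below was not tested. In lysed cultures, fewer cells with a transcript and less of it per cell cannot be told apart. The labels do not tell whether the 4 libraries per group are separate cultures, and the p-values therefore cover the spread of these libraries alone.

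Prostaglandins are lipid signals made from arachidonic acid. Cytosolic phospholipase A2, the product of Pla2g4a, frees arachidonic acid from membranes. The cyclooxygenases turn it into prostaglandin H, Ptgs1 encoding the form that most cells hold constantly and Ptgs2 the form that inflammatory signals induce. Prostaglandin E synthases then make prostaglandin E: Ptges encodes the inducible microsomal enzyme, Ptges2 a second membrane-associated one and Ptges3 the cytosolic one, which is also the HSP90 co-chaperone p23. Ptger4 encodes EP4, a receptor through which cells sense the product. In fibroblasts the inducible pair of Ptgs2 and Ptges is known for raising prostaglandin E output in inflammation, and NF-κB, which IKKβ releases, is a known activator of Ptgs2.

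On the GRCm38 build, Ptgs1 (ENSMUSG00000047250.13) lies at chr2:36230426-36252272 on the plus strand, and Ptgs2 (ENSMUSG00000032487.8) at chr1:150100031-150108227 on the plus strand. Ptges (ENSMUSG00000050737.13) lies at chr2:30889471-30929863 on the minus strand. Pla2g4a (ENSMUSG00000056220.14, chr1:149829618-149961290, minus strand) lies on the same chromosome as Ptgs2. The remaining genes are Ptges2 (ENSMUSG00000026820.5, chr2:32395896-32405772, plus), Ptges3 (ENSMUSG00000071072.12, chr10:128058954-128077272, plus) and Ptger4 (ENSMUSG00000039942.15, chr15:5206661-5244187, minus). All are protein-coding in GENCODE M21. The 3' end of Ptger4 overlaps the opposite-strand gene Ttc33, and since it is not stated whether counting used strand, counts of Ptger4 are uncertain. Ptges3 has a processed pseudogene on chromosome 6 that has no row in the table, so reads of the copy, if counted to Ptges3, cannot be told apart.

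The promoters of the inducible pair, Ptgs2 and Ptges, and of the constitutive Ptgs1 are shown because the first 2 were called higher with the cytokines and Ptgs1 was not called. Each is the RefSeq window of GRCm38.p6 from 250 bases before to 50 bases after the annotated start, 5' to 3' on the gene's strand. Capitals mark letters that match a motif searched on both strands.
Ptgs2 (chr1:150099781-150100080, plus strand): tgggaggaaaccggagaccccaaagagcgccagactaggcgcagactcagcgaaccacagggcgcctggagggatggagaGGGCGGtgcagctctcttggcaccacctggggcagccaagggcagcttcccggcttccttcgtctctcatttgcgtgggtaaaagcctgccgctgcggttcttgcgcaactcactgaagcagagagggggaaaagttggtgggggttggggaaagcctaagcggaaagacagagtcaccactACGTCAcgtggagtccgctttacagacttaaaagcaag
Ptges (chr2:30903248-30903547, minus strand): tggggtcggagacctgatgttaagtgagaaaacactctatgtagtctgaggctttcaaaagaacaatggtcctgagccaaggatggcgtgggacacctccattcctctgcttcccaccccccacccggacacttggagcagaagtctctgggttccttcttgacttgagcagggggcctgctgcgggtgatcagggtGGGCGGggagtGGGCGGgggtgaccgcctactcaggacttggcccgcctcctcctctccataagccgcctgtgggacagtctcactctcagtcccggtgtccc
Ptgs1 (chr2:36230176-36230475, plus strand): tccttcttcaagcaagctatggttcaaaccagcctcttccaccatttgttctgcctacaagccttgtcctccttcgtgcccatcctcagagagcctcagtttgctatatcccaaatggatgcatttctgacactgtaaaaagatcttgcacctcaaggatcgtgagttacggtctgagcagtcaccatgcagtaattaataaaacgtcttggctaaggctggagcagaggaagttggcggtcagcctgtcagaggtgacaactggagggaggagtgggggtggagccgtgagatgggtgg
In Ptgs2 the capitals are a GC box (GGGCGG) at 170 to 165 bases before the start and the letters ACGTCA, part of a cAMP response element (TGACGT) read on the other strand, at 12 to 17 bases after it. Ptges holds the GC box at 53 to 48 and at 42 to 37 bases before its start, and the Ptgs1 window matched none of the motifs. The letters GGNNNTTCC of an NF-κB site, TGANTCA of an AP-1 site and TATAAA of a TATA box are in none of these 3 windows. Of 32817 RefSeq windows of the same length, 18.5% hold the NF-κB letters, 7.81% the AP-1 letters, 7.50% the cAMP element letters, 13.6% the TATA letters and 35.6% the GC box. A match or its absence in these windows says nothing of the factor's binding, which was not measured here.

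Without inhibitor, the cytokine response of the pathway was carried by Ptgs2 and Ptges, with a later and smaller rise of Pla2g4a, and Ptgs1 was not called at any time. Each group was set against the unstimulated libraries with edgeR's quasi-likelihood test, and a gene was called where its p-value, adjusted over all 10766 genes tested, was under 0.05. At 15 min 0 of 7 genes were called under either label, against 0.167% of all genes tested under the IL-1β label and 0.186% under the other. At an unadjusted p under 0.05 there were 3 (Ptgs1, Ptgs2 and Ptges3) and 1 (Ptgs2), and DESeq2 called 0 under both labels. Of all 10766 genes tested, 1120 and 1293 passed that unadjusted rule (edgeR). In the libraries labelled IL-1β, 2 of 7 genes were higher at 30 min (0.957% of all genes were called), 2 at 60 min (3.36%), 3 higher and 1 lower at 120 min (12.5%) and 4 higher at 360 min (21.7%). In those labelled TNF-α, 1 was higher at 30 min (0.659% of all genes were called), 2 at 60 min (5.41%), 4 at 120 min (14.2%) and 3 at 360 min (5.42%). The median log2 change of the 7 genes was 0.15 to 0.30 over the times labelled IL-1β and 0.09 to 0.34 over those labelled TNF-α, where the median of all genes lay between -0.02 and 0.01.

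Ptgs2, the inducible cyclooxygenase, rose within 30 min and peaked at 60 to 120 min. The unstimulated libraries held 66.4, 74.3, 74.1 and 87.1 CPM. Those labelled IL-1β held 203, 261, 195 and 194 CPM at 30 min, 764, 735, 672 and 687 CPM at 60 min, 816, 764, 711 and 669 CPM at 120 min, and 478, 511, 416 and 431 CPM at 360 min. Every stimulated library from 30 min on was above every unstimulated one. The log2 changes were 1.50 ± 0.20 (SE; adjusted p = 1.71e-08, edgeR), 3.24 ± 0.19, 3.29 ± 0.19 and 2.61 ± 0.19, or 2.83-fold, 9.48-fold, 9.81-fold and 6.09-fold.

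In the libraries labelled TNF-α, Ptgs2 held 313, 247, 277 and 283 CPM at 30 min and 1097, 1235, 1115 and 1159 CPM at 60 min. It then held 1072, 763, 836 and 819 CPM at 120 min and 176, 157, 329 and 256 CPM at 360 min. All of these were above the unstimulated libraries, and the 4 libraries of 360 min were the most spread of them. The log2 changes were 1.89 ± 0.20, 3.93 ± 0.19, 3.54 ± 0.19 and 1.60 ± 0.20 (adjusted p from 9.32e-40 at 60 min to 6.1e-10 at 360 min, edgeR), or 3.72-fold, 15.3-fold, 11.6-fold and 3.04-fold. At 15 min the means were 108 ± 24.9 CPM (SD, n = 4) labelled IL-1β and 105 ± 21.8 CPM labelled TNF-α, log2 changes of 0.50 and 0.49 that were not called (adjusted p = 0.405 and 0.357, edgeR). Without the filter on low counts both were called (adjusted p = 0.00164 and 0.00134).

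Ordered by mean level, the groups without inhibitor ran from TNF-α 60 min through TNF-α 120 min, IL-1β 120 min, IL-1β 60 min, IL-1β 360 min, TNF-α 30 min, TNF-α 360 min, IL-1β 30 min, IL-1β 15 min and TNF-α 15 min to the unstimulated libraries. Among neighbours in this order of Ptgs2, the libraries of TNF-α 60 and 120 min did not overlap, nor did those of IL-1β 60 and 360 min, IL-1β 360 min and TNF-α 30 min, and IL-1β 30 and 15 min. The libraries of each other neighbouring pair overlapped.

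Ptges, the inducible synthase, was called 1 time point after Ptgs2 and reached its highest level at different times under the 2 labels. Its unstimulated libraries held 167, 148, 137 and 149 CPM. At 15 and 30 min its group means were 156 to 184 CPM and it was not called. In the libraries labelled IL-1β it held 542, 471, 429 and 403 CPM at 60 min, 867, 801, 854 and 847 CPM at 120 min, and 1259, 1333, 1168 and 1257 CPM at 360 min. These 3 groups lay above one another without overlap. The log2 changes of Ptges were 1.61 ± 0.10, 2.48 ± 0.10 and 3.06 ± 0.10 (adjusted p = 4.42e-57 at 360 min, edgeR), the last an 8.32-fold rise.

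In the libraries labelled TNF-α, Ptges held 843, 749, 701 and 595 CPM at 60 min, 1085, 1084, 1019 and 965 CPM at 120 min, and 321, 387, 474 and 415 CPM at 360 min. Its libraries at 360 min lay below those of 60 min and above the unstimulated ones. The log2 changes were 2.26 ± 0.10, 2.78 ± 0.10 (adjusted p = 4.58e-52, edgeR) and 1.40 ± 0.11. In the order of means, IL-1β 360 min was followed by TNF-α 120 min, IL-1β 120 min, TNF-α 60 min, IL-1β 60 min, TNF-α 360 min, and the groups of 30 and 15 min. IL-1β 120 min overlapped TNF-α 60 min, IL-1β 60 min overlapped TNF-α 360 min, and the groups of 15 and 30 min overlapped their neighbours down to the unstimulated libraries.

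**Figure D1:**
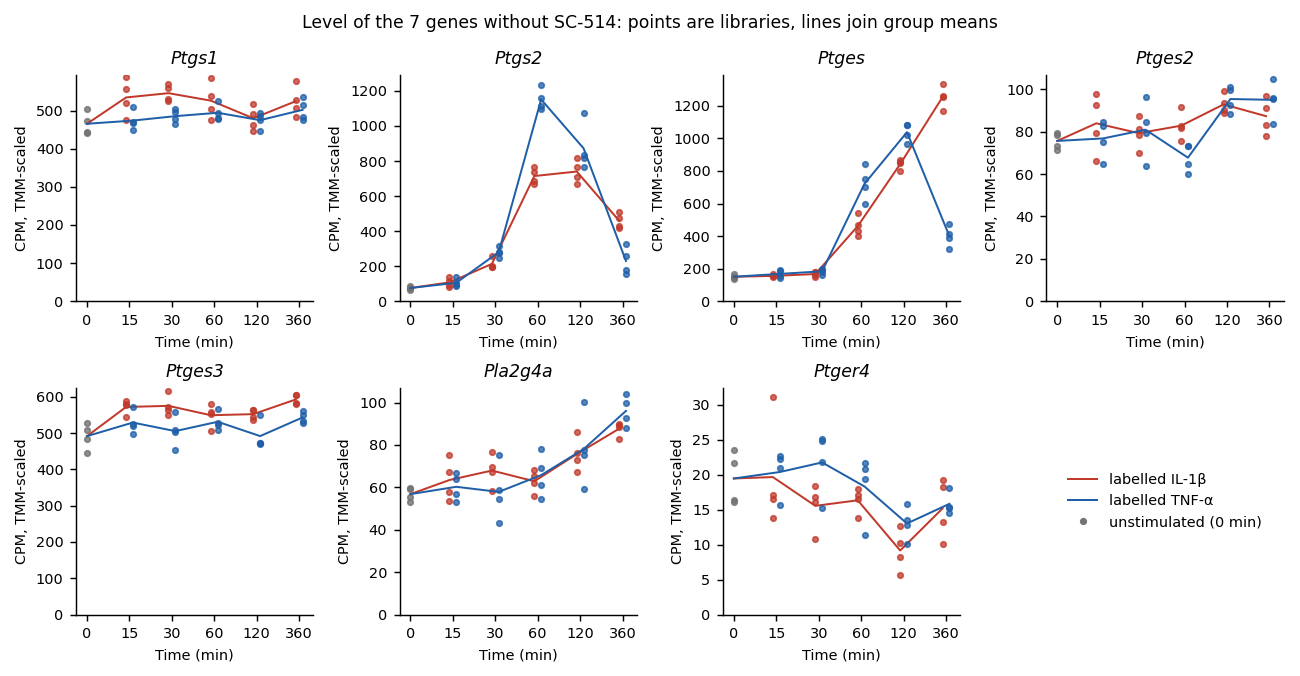
Level (TMM-scaled CPM, y axis from 0) of each of the 7 genes without SC-514 against time after stimulation (min; the times are spaced evenly, not to scale), with points for libraries, lines through group means, red for libraries labelled IL-1β, blue for those labelled TNF-α and grey for unstimulated ones at 0. Ptgs2 peaks at 1151 CPM at 60 min under the TNF-α label, and Ptges is highest at 1254 CPM at 360 min under the IL-1β label and at 1038 CPM at 120 min under the TNF-α label.

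Pla2g4a, which encodes the arachidonic acid-releasing phospholipase, rose late. Unstimulated libraries held 59.2, 55.3, 53.1 and 59.7 CPM. At 360 min its libraries held 89.5, 89.9, 88.7 and 82.7 CPM labelled IL-1β and 99.9, 92.7, 104 and 87.8 CPM labelled TNF-α, all above the unstimulated ones. The log2 changes were 0.62 ± 0.13 and 0.76 ± 0.13 (adjusted p = 3.57e-05 and 2.26e-06, edgeR). At 120 min they were 0.41 and 0.47 (adjusted p = 0.0156 and 0.00463, edgeR). The first call was lost in DESeq2 and whenever 1 library number was left out, and the second without number 1 (adjusted p = 0.151).

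Ptgs1, the constitutive cyclooxygenase, held 445, 441, 504 and 473 CPM in the unstimulated libraries, and its stimulated group means lay between 474 and 546 CPM. It was called in 0 of the 10 comparisons with the unstimulated group, with the smallest adjusted p at 0.061 (edgeR, 360 min labelled IL-1β). With DESeq2's size factors and without the 2 shallow libraries, that comparison was called (adjusted p = 0.0487). At an unadjusted p under 0.05 it was higher in 4 of them, all labelled IL-1β, by 0.17 to 0.23 on the log2 scale.

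The other synthases were close to their unstimulated level throughout. Ptges3 rose by 0.27 ± 0.06 on the log2 scale at 360 min labelled IL-1β (adjusted p = 0.000347, edgeR), from 491 ± 35.4 to 592 ± 14.3 CPM. Its call at 30 min (0.23, adjusted p = 0.045) and that of Ptges2 at 120 min labelled TNF-α (0.34, adjusted p = 0.046) were each lost in 8 of 12 alternative analyses. Ptger4, the EP4 receptor gene, fell to 5.59, 8.20, 12.6 and 10.2 CPM at 120 min labelled IL-1β from 21.6, 16.4, 23.6 and 16.1 CPM, without overlap. Its log2 change was -1.09 ± 0.25 (adjusted p = 0.000649, edgeR), and that of the overlapping gene Ttc33 in the same comparison was -0.32 and was not called. At 120 min labelled TNF-α its libraries held 10.0 to 15.7 CPM (log2 change -0.57, adjusted p = 0.117).

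With 100 µM SC-514, 6 of the 7 genes were lower in at least 1 comparison and Ptger4 alone was higher. In the libraries labelled IL-1β, Ptger4 was called at all 5 times, and of the others 4 were lower at 15 min (24.8% of all genes tested were called), 5 at 30 min (22.5%), 5 at 60 min (25.9%), 6 at 120 min (30.4%) and 5 at 360 min (29.5%). In those labelled TNF-α, Ptger4 was called at all times but 360 min, and 3 genes were lower at 15 min (22.2%), 4 at 30 min (17.9%), 5 at 60 min (22.0%), 5 at 120 min (26.5%) and 5 at 360 min (26.8%). The median log2 change of the 7 genes was -0.25 to -0.69, and that of all genes 0.00 to 0.04. All comparisons of 1 label and time with different concentrations share their 0 µM libraries.

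Ptgs2 was lower with 100 µM from 30 min on, and not at 15 min. Labelled IL-1β, its libraries at 60 min held 284, 226, 189 and 243 CPM with 100 µM, against 672 to 764 CPM without. At 120 min they held 321, 329, 356 and 391 CPM against 669 to 816 CPM, and at 360 min 230, 285, 254 and 282 CPM against 416 to 511 CPM. At none of these times did the groups overlap. The log2 changes were -0.82 ± 0.19 at 30 min, -1.59 ± 0.16 at 60 min (adjusted p = 4.07e-15, edgeR), -1.08 ± 0.16 at 120 min and -0.80 ± 0.16 at 360 min.

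Labelled TNF-α, Ptgs2 held 546, 718, 449 and 464 CPM at 60 min with 100 µM against 1097 to 1235 CPM without, 465, 393, 357 and 414 CPM at 120 min against 763 to 1072 CPM, and 80.9, 73.1, 90.3 and 70.7 CPM at 360 min against 157 to 329 CPM. These groups did not overlap either. Its log2 changes were -1.09 ± 0.15, -1.11 ± 0.15 and -1.54 ± 0.19 (adjusted p = 1.3e-09, 8.15e-10 and 2.1e-11, edgeR). At 30 min the change was -0.65 ± 0.17 (adjusted p = 0.00376, edgeR), a call lost without library number 4 (adjusted p = 0.0794). At 15 min it was -0.12 labelled IL-1β and 0.23 labelled TNF-α, with 95% intervals of -0.54 to 0.29 and -0.17 to 0.63.

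A concentration below 100 µM moved Ptgs2 in different directions at different times. At 15 min with 25 µM its libraries held 166, 246, 149 and 197 CPM labelled IL-1β and 202, 191, 191 and 209 CPM labelled TNF-α. Both groups lay above their 0 µM libraries, at 81.3 to 139 CPM and 86.4 to 136 CPM. The log2 changes were 0.83 (95% interval 0.45 to 1.21) and 0.91 (0.52 to 1.30). At 360 min with 25 µM they were -0.52 (-0.84 to -0.21) and -0.84 (-1.21 to -0.47). These intervals are not adjusted, and the test was an F test over the 5 times: Ptgs2 was called at 25 µM under both labels (adjusted p = 0.000157 and 1.53e-06, edgeR), with mean log2 changes of 0.04 and 0.11. At 50 µM the mean changes were -0.35 and -0.36 (adjusted p = 2.08e-07 and 1.92e-09, edgeR). At 60 min labelled IL-1β the means stepped down from 714 CPM at 0 µM to 595, 424 and 235 CPM at 25, 50 and 100 µM, and the libraries of the 4 concentrations did not overlap. Labelled TNF-α at that time, the libraries held 1097 to 1235, 966 to 1230, 636 to 1072 and 449 to 718 CPM. There the libraries of neighbouring concentrations overlapped. At 120 min the 25 µM means, 806 and 1025 CPM, were above the 0 µM means of 740.1 and 873 CPM, with intervals of the log2 change that include 0.

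**Figure D2:**
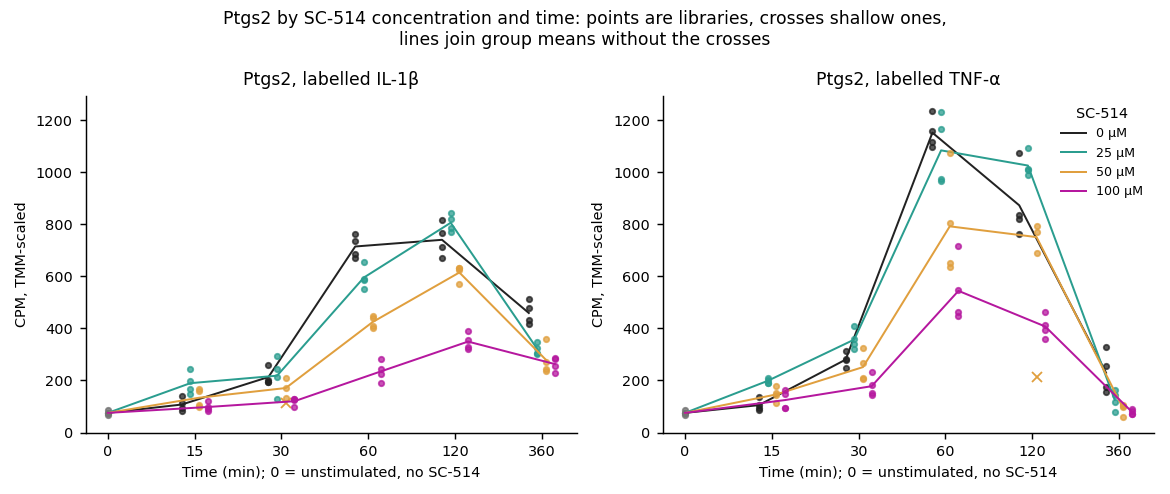
Level of Ptgs2 (TMM-scaled CPM) against time (min, evenly spaced; 0 is the unstimulated group without SC-514) for libraries labelled IL-1β (left) and TNF-α (right), coloured by SC-514 concentration, with points for libraries, crosses for the 2 shallow libraries and lines through group means without them. The 25 µM points lie above the 0 µM points at 15 min, and the 100 µM points lie below them from 60 min on.

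The F tests of the lower concentrations called most of the 7 genes. With 25 µM, 2 were higher and 4 lower labelled IL-1β (28.7% of all genes were called), and 2 higher and 3 lower labelled TNF-α (23.8%), by the sign of the mean log2 change over the 5 times. With 50 µM it was 1 and 6 (40.0%) and 1 and 5 (35.9%). The median of the 7 mean log2 changes was -0.15 and -0.14 at 25 µM and -0.35 and -0.36 at 50 µM, that of all genes at most 0.01.

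Ptges fell step by step with concentration once it had been induced. At 60 min labelled IL-1β its group means were 461, 279, 188 and 148 CPM at 0, 25, 50 and 100 µM, and labelled TNF-α 722, 427, 312 and 158 CPM. At 120 min they were 842, 429, 323 and 234 CPM labelled IL-1β. At 360 min labelled IL-1β the 4 concentrations held 1168 to 1333, 739 to 848, 583 to 629 and 407 to 454 CPM, without overlap between neighbours. The mean log2 change over the 5 times was -0.46 and -0.86 at 25 and 50 µM labelled IL-1β (adjusted p = 1.53e-24 and 3e-41, edgeR), and -0.48 and -0.82 labelled TNF-α (adjusted p = 2.83e-21 and 1.48e-36, edgeR).

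With 100 µM, Ptges held 168, 141, 136 and 145 CPM at 60 min labelled IL-1β and 160, 158, 155 and 159 CPM labelled TNF-α, within or near the unstimulated range of 137 to 167 CPM. The log2 changes against 0 µM at 60, 120 and 360 min were -1.64 ± 0.10, -1.84 ± 0.10 and -1.55 ± 0.09 labelled IL-1β (adjusted p at most 2.97e-28, edgeR). Labelled TNF-α they were -2.19 ± 0.10, -1.81 ± 0.09 and -1.22 ± 0.10 (adjusted p at most 4.79e-21, edgeR). The change at 60 min labelled TNF-α was 4.57-fold. At 15 min Ptges was not called (-0.13 and -0.26), and its call at 30 min labelled IL-1β (-0.31, adjusted p = 0.0416, edgeR) was lost in 5 of 12 alternative analyses, while that labelled TNF-α (-0.50, adjusted p = 0.000462) was not.

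**Figure D3:**
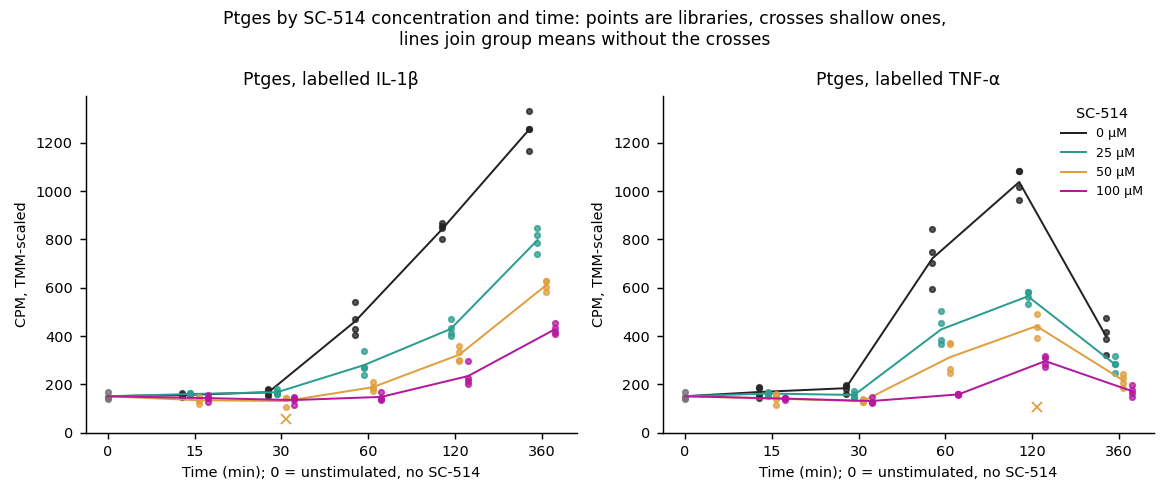
Level of Ptges (TMM-scaled CPM) against time (min, evenly spaced; 0 is the unstimulated group without SC-514) for libraries labelled IL-1β (left) and TNF-α (right), coloured by SC-514 concentration, with points for libraries, crosses for the 2 shallow libraries and lines through group means without them. From 60 min on the means order by concentration, from 1254 CPM at 0 µM to 428 CPM at 100 µM at 360 min labelled IL-1β.

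Ptgs1 was lower with 100 µM at every time under both labels, 15 min included. Its libraries at 15 min held 360, 360, 338 and 337 CPM with 100 µM labelled IL-1β against 476 to 587 CPM without, and 351, 320, 318 and 336 CPM labelled TNF-α against 449 to 510 CPM. In all 10 pairs of groups the libraries did not overlap. The log2 changes lay between -0.49 and -0.78 labelled IL-1β and between -0.51 and -0.69 labelled TNF-α, the lowest at 360 min (adjusted p = 2.99e-18 and 3.27e-16, edgeR). The 4 F tests of 25 and 50 µM were also called, with mean log2 changes of -0.32 and -0.43 labelled IL-1β and -0.30 and -0.45 labelled TNF-α. Every one of these calls of Ptgs1 held in all 12 alternative analyses. At 360 min with 25 µM the change was -0.15 labelled IL-1β and -0.11 labelled TNF-α, the smallest of the 5 times under each label.

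Pla2g4a was also lower with 100 µM at all times under both labels. At 120 min its libraries held 36.3, 38.1, 29.6 and 38.4 CPM labelled IL-1β against 67.4 to 85.9 CPM, a log2 change of -1.08 ± 0.14 (adjusted p = 2.02e-10, edgeR). Labelled TNF-α they held 35.4, 41.3, 50.3 and 45.8 CPM against 59.2 to 100.4 CPM, a change of -0.85 ± 0.13 (adjusted p = 1.08e-08, edgeR). The other times gave -0.58 to -0.95 labelled IL-1β and -0.55 to -0.70 labelled TNF-α. Of the 10 calls, those at 15 and 30 min labelled TNF-α were lost without library number 1 (adjusted p = 0.0747) and number 4 (adjusted p = 0.141). With 25 and 50 µM the mean log2 changes were -0.54 and -0.71 labelled IL-1β and -0.42 and -0.50 labelled TNF-α, all called.

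Ptger4 moved the other way. At 120 min labelled IL-1β its libraries held 44.6, 39.1, 39.4 and 45.9 CPM with 100 µM against 5.59 to 12.6 CPM without, a log2 change of 2.20 ± 0.23 (adjusted p = 1.13e-15, edgeR). Labelled TNF-α they held 38.8, 40.7, 26.7 and 24.6 CPM against 10.0 to 15.7 CPM, a change of 1.28 ± 0.21 (adjusted p = 2.86e-07, edgeR). Both pairs of groups were apart. At 15, 30 and 60 min the changes were 1.00, 1.09 and 1.01 labelled IL-1β and 0.58, 0.68 and 1.03 labelled TNF-α, all called. At 360 min they were 0.63 (adjusted p = 0.0281) and 0.09 (not called). The calls at 15 and 30 min labelled TNF-α and at 360 min labelled IL-1β were lost without 1 or more of the library numbers, with adjusted p up to 0.158, 0.133 and 0.163. Both lower concentrations were called under both labels, with mean log2 changes of 0.66 to 1.15. Ttc33, whose 3' end overlaps it, changed by 0.15 at 120 min with 100 µM labelled IL-1β and was not called there. Of the 10 comparisons with 100 µM, Ttc33 was called in 2, higher by 0.59 at 60 min labelled IL-1β and at 30 min labelled TNF-α.

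**Figure D4:**
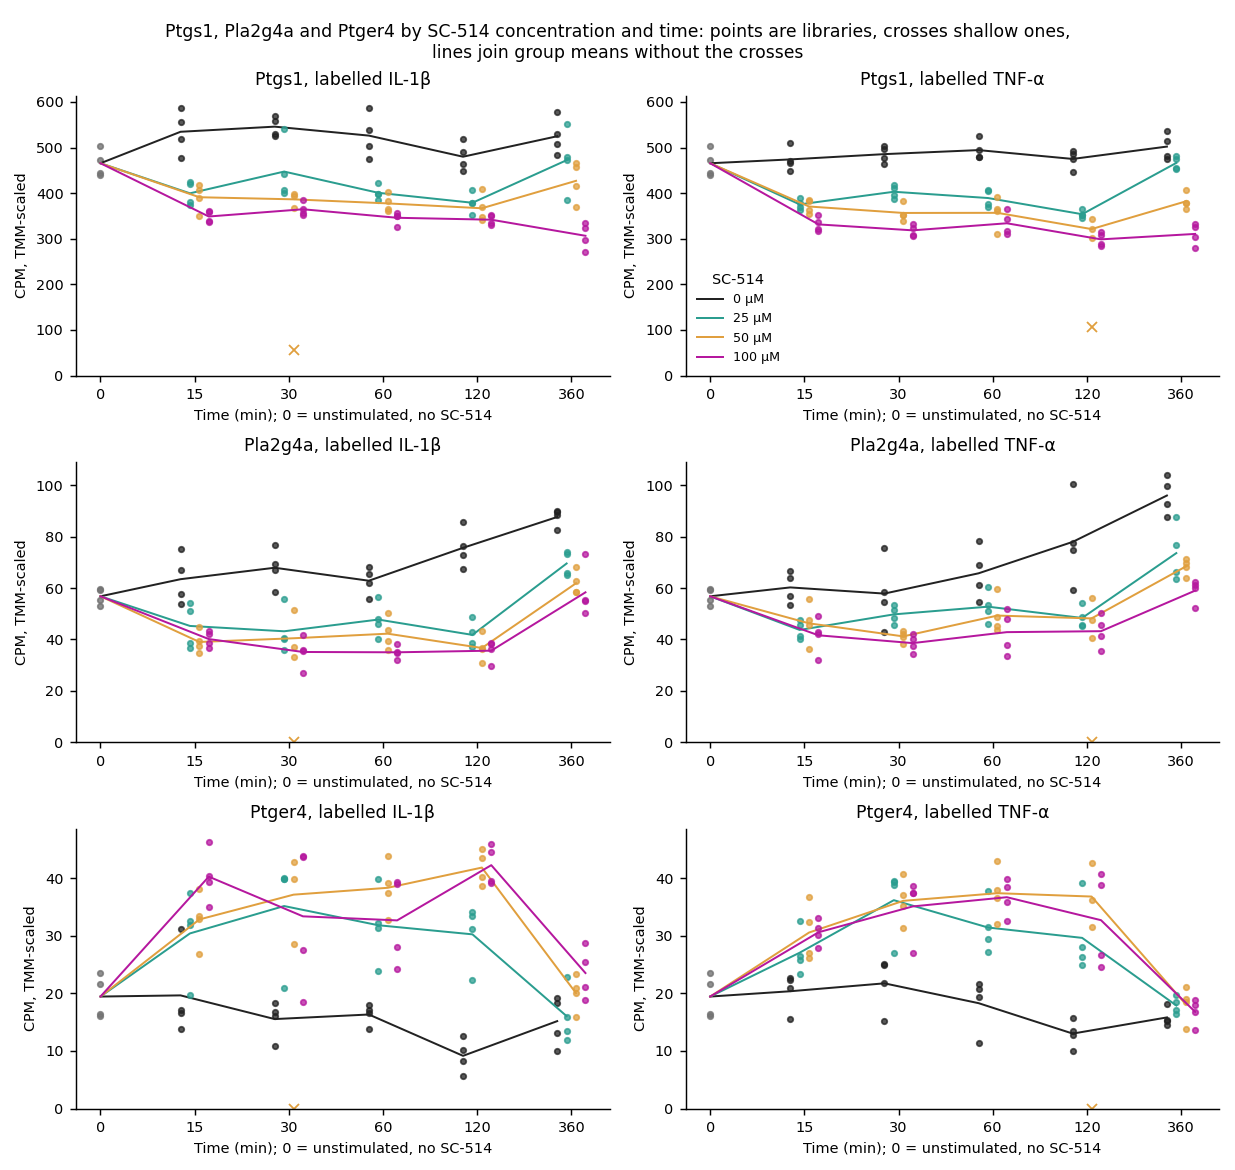
Level (TMM-scaled CPM) of Ptgs1, Pla2g4a and Ptger4 (rows, from top to bottom) against time (min, evenly spaced, where 0 is the unstimulated group without SC-514). Libraries labelled IL-1β are on the left and those labelled TNF-α on the right, coloured by SC-514 concentration. Points are libraries, crosses are the 2 shallow libraries, and lines run through group means without them. Ptgs1 and Pla2g4a are lower with 100 µM SC-514 from 15 min on, and Ptger4 at 120 min labelled IL-1β is at 9.15 CPM without and 42.3 CPM with 100 µM.

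The constitutive synthases changed little. Ptges3 was lower with 100 µM in 8 of 10 comparisons, by 0.17 to 0.33 on the log2 scale, and 4 of these 8 calls held in all 12 alternative analyses. The call at 60 min labelled TNF-α (the change of 0.17) was lost in 11 of the 12, that at 120 min labelled IL-1β in 3, and those at 60 min labelled IL-1β (without number 3, adjusted p = 0.0507, edgeR) and at 15 min labelled TNF-α (with DESeq2, adjusted p = 0.0552) in 1 each. The largest change was that of 360 min labelled TNF-α, where its libraries held 438, 414, 410.0 and 468 CPM against 528 to 561 CPM (-0.33 ± 0.06, adjusted p = 8.75e-06, edgeR). Ptges2 was lower in 3 of 10. At 120 min labelled TNF-α it held 72.1, 58.7, 60.5 and 63.6 CPM against 88.4 to 101 CPM (-0.59 ± 0.12, adjusted p = 2.33e-05, edgeR). That was its only call in the 37 comparisons that held in all 12 alternative analyses.

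In number 1 of IL-1β 100 µM more genes were detected than in the other 3 libraries of its group, 14634 against 13198 to 13350 at 120 min and 15303 against 13170 to 13529 at 360 min. Without it, Ptges2 (adjusted p = 0.0809) and Ptges3 (0.0659) at 120 min and Ptger4 at 360 min (0.127) were no longer called with 100 µM, and the calls of Ptgs1, Ptgs2, Ptges and Pla2g4a at those times held.

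**Figure D5:**
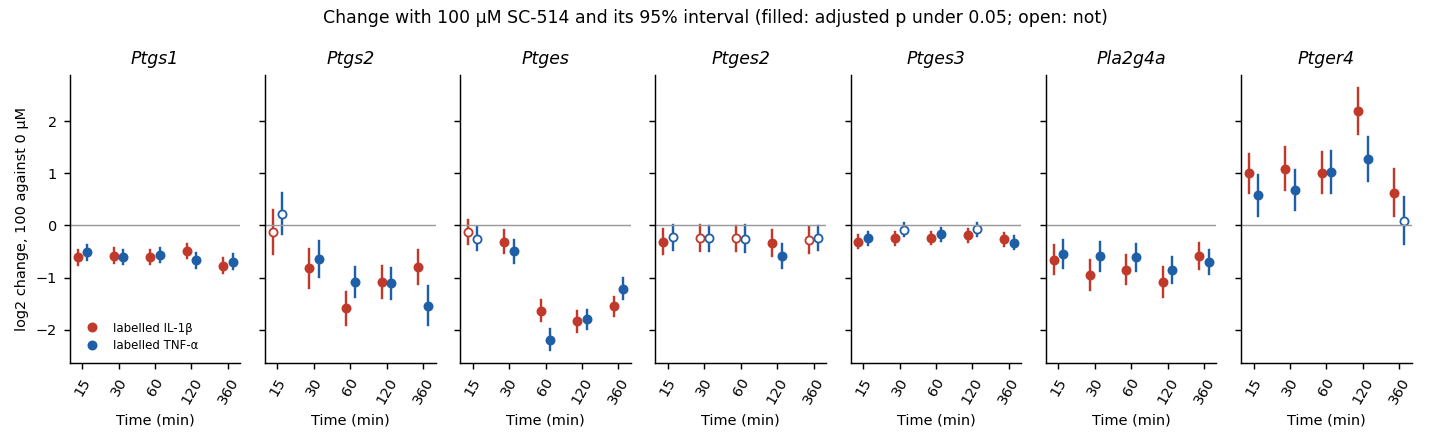
Change in each gene with 100 against 0 µM SC-514 (log2 scale, y axis) at 5 times after stimulation (min, evenly spaced), red for libraries labelled IL-1β and blue for those labelled TNF-α. Points are estimates of the edgeR model with 95% intervals, filled where the adjusted p was under 0.05. Ptgs1 lies between -0.49 and -0.78 at all times, Ptges falls to -2.19 at 60 min labelled TNF-α, and Ptger4 rises to 2.20 at 120 min labelled IL-1β.

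Cells given 100 µM SC-514 and a cytokine were also set against the unstimulated group. Ptgs2 stayed above it at 60, 120 and 360 min labelled IL-1β, by 1.65 ± 0.20, 2.21 ± 0.20 and 1.80 ± 0.20 on the log2 scale, and at 60 and 120 min labelled TNF-α, by 2.84 ± 0.19 and 2.43 ± 0.19 (the largest adjusted p was 2.74e-11, edgeR). At 360 min labelled TNF-α its change was 0.06 (95% interval -0.37 to 0.49) and was not called. Ptges was not called at 60 min under either label (-0.02, interval -0.25 to 0.21, and 0.07, interval -0.15 to 0.29). At 120 min it was higher by 0.64 and 0.98, and at 360 min by 1.50 labelled IL-1β, with 0.19 not called labelled TNF-α. Ptgs1 was below the unstimulated level in all 6 comparisons, by 0.43 to 0.64 on the log2 scale. Pla2g4a was below it at 60 and 120 min, by 0.71 and 0.67 labelled IL-1β. Labelled TNF-α it was lower by 0.39 and 0.37, calls lost in 5 of 12 alternative analyses each. Ptger4 was above it at 60 and 120 min under both labels, by 0.72 to 1.11. The call at 60 min labelled IL-1β was lost without number 4 (adjusted p = 0.0736, edgeR) and that at 120 min labelled TNF-α without number 2 (adjusted p = 0.102). Over the 7 genes, 2 were higher and 2 lower at 60 min labelled IL-1β (22.2% of all genes were called), 3 and 2 at 120 min (22.7%), and 2 and 1 at 360 min (30.4%). Labelled TNF-α it was 2 and 3 (23.1%), 3 and 2 (24.5%), and 0 and 2 (28.9%). Medians of the 7 log2 changes lay between -0.08 and 0.05, those of all genes between 0.00 and 0.03.

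The labels were compared with each other in the libraries without inhibitor, where 2 genes were higher and 1 lower labelled IL-1β in the F test over the 5 times, by the sign of the mean difference (9.56% of all genes were called). By that sign, higher were Ptges (mean difference 0.09, adjusted p = 8.13e-34, edgeR F test) and Ptges3 (0.13, adjusted p = 0.00828, lost without library number 2 or 3). Lower was Ptgs2 (mean difference -0.06, adjusted p = 2.83e-08, edgeR F test). The F test itself has no direction, and for both Ptges and Ptgs2 the sign of the difference changed between 60 and 360 min. Per time, 0 of 7 were called at 15 min (0.0372% of all genes), 0 at 30 min (0.186%), 2 at 60 min (1.26%), 0 at 120 min (1.02%) and 2 at 360 min (9.46%). At an unadjusted p under 0.05 there were 1, 4 and 2 at 15, 30 and 120 min, and DESeq2 called 0 at each. Of all 10766 genes tested, 750, 887 and 1206 passed that unadjusted rule (edgeR). Ptgs2 and Ptges were lower labelled IL-1β at 60 min and higher at 360 min. For Ptges the log2 difference was -0.65 ± 0.09 at 60 min (adjusted p = 7.71e-08, edgeR), -0.30 ± 0.09 at 120 min (adjusted p = 0.0611, and called in 6 of 12 alternative analyses) and 1.65 ± 0.09 at 360 min (adjusted p = 3.63e-33). For Ptgs2 it was -0.69 ± 0.15 at 60 min (adjusted p = 0.00159, edgeR) and 1.00 ± 0.17 at 360 min (adjusted p = 1.61e-06). The first of these was lost without library number 4 (adjusted p = 0.0566).

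Whether 100 µM acted differently under the 2 labels was tested by the difference of its log2 effects over the 5 times. Of the 7 genes, Ptges was called (adjusted p = 0.0191, edgeR), where 4.68% of all genes were. Its log2 effect was smaller labelled IL-1β at 60 min, by 0.56 (95% interval 0.27 to 0.84), and larger at 360 min (-0.34, -0.60 to -0.07). At 60 min the level of Ptges without inhibitor was itself lower labelled IL-1β, by 0.65 on the log2 scale. With 100 µM at that time, Ptges was not called against the unstimulated group under either label. Leaving out any 1 library number ended the call of Ptges in the test of the difference (adjusted p = 0.0626 to 0.174). At an unadjusted p under 0.05, Ptgs2 and Ptger4 also passed, with adjusted p of 0.125 and 0.156. Of all 10766 genes tested, 1750 passed that unadjusted rule (edgeR). Without the filter on low counts Ptgs2 was called as well (adjusted p = 1.72e-10, edgeR), and in the other 11 alternative analyses it was not (0.0735 to 0.552). The largest differences at 1 time were 0.74 (0.24 to 1.23) at 360 min for Ptgs2 and 0.92 (0.26 to 1.57) at 120 min for Ptger4.

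Over the means of the 41 groups, the log2 levels of the 7 genes were correlated to different degrees. Ptgs2 and Ptges had a Pearson correlation of 0.68, while Ptgs2 and Ptgs1 had one of 0.06. Ptgs1, Ptges3, Pla2g4a and Ptges2 were correlated with each other at 0.63 to 0.86, and Ptger4 was correlated with Ptges at -0.48. The groups share the scaling of their libraries and the same concentrations and times, so these are descriptions without a test. The means include the 2 shallow libraries, which held 0 counts of Pla2g4a and 1 count of Ptgs1 each. What these libraries contribute to the correlations was not tested. Among 10411 genes with a group mean of at least 5 CPM, those most like Ptgs2 over the 41 groups were Lif (r = 0.96), Ccl20 (0.96), Ereg (0.95), Ccl2 (0.94) and Adm (0.94), which encode a cytokine, 2 chemokines, an EGF receptor ligand and a vasoactive peptide. Those most like Ptges were Acod1 (0.95), an itaconate-producing enzyme, Bdkrb1 (0.91), a bradykinin receptor, Adamts4 (0.90), an aggrecan-cleaving protease, Slfn2 (0.90), and Slc7a2 (0.90), an arginine transporter. By rank correlation Bdkrb1 was in place 15, and the other 9 genes in place 6 or better.

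Other genes of eicosanoid metabolism were followed as a list of 49, of which 28 passed the filter on low counts: phospholipases and acyl turnover, other terminal synthases, transport and breakdown, receptors and the lipoxygenase branch. With the cytokines at 60 min there were 0 called of 28 labelled IL-1β (3 at an unadjusted p under 0.05, edgeR) and 2 higher labelled TNF-α, where 3.36% and 5.41% of all genes were called. Of all 10766 genes tested, 1598 passed the unadjusted rule labelled IL-1β. At 360 min 7 were higher and 4 lower labelled IL-1β (median log2 change -0.11, with 21.7% of all genes called at a median of -0.01) and 2 higher labelled TNF-α (0.06, with 5.42% called at a median of 0.00). Abcc4, an exporter of prostaglandins, rose from 37.3 ± 6.45 CPM to 83.7 ± 16.0 CPM at 360 min labelled IL-1β and 80.9 ± 15.7 CPM labelled TNF-α (log2 changes 1.17 and 1.13, adjusted p = 2.93e-09 and 9.87e-08, edgeR). Acsl4, which couples arachidonic acid to coenzyme A, rose from 346 ± 15.5 to 532 ± 13.4 CPM labelled TNF-α (0.62, adjusted p = 2.41e-07). Ptgfr, the prostaglandin F receptor gene, fell from 59.4 ± 6.82 to 28.5 ± 3.68 CPM labelled IL-1β (-1.06, adjusted p = 5.48e-06), and was at 65.3 ± 7.10 CPM labelled TNF-α. Between the labels without inhibitor, 4 of 28 were called at 360 min and 3 in the F test (9.46% and 9.56% of all genes). The difference for Ptgfr at 360 min was -1.20 (adjusted p = 6.5e-07, edgeR). For Akr1b8 it was 0.33 (adjusted p = 0.00276, edgeR), and for the receptor gene Ptgir 1.27 (adjusted p = 0.0459, edgeR), at 11.8 ± 4.75 against 4.85 ± 2.78 CPM. Anxa1 had a mean difference of -0.23 over the 5 times (adjusted p = 1.41e-06, edgeR).

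With 100 µM SC-514, 8 to 14 of the 28 listed genes were lower and 0 to 3 higher at each label and time, with median log2 changes of -0.24 to -0.01. Of all genes, 17.9% to 30.4% were called in these comparisons, at medians of 0.00 to 0.04. Acsl4 fell most by p-value, from 450.4 ± 59.5 to 187 ± 18.0 CPM at 120 min labelled TNF-α (-1.28 ± 0.10, adjusted p = 4.76e-23, edgeR). It was at 175 ± 8.95 CPM at 15 min labelled IL-1β with 100 µM against 366 ± 34.5 CPM without. Anxa1, which encodes a known inhibitor of phospholipase A2, fell from 554 ± 28.6 to 313 ± 5.01 CPM at 360 min labelled TNF-α (-0.83, adjusted p = 1.81e-18). Akr1b8, an aldo-keto reductase, fell from 163 ± 6.82 to 85.6 ± 5.78 CPM at 360 min labelled IL-1β (-0.93, adjusted p = 9.51e-18). Ptgfr fell from 65.3 ± 7.10 to 16.7 ± 3.04 CPM at 360 min labelled TNF-α (-1.96, adjusted p = 2.7e-16), and with 100 µM at 360 min labelled IL-1β it was at 8.81 ± 1.81 CPM, 2.74 on the log2 scale below the unstimulated level in the fit (-2.74, adjusted p = 2.15e-18). With the lower concentrations, 9 to 11 of the 28 were lower and 2 or 3 higher in the F tests, which called 28.7% of all genes at 25 µM and 40.0% at 50 µM labelled IL-1β, and 23.8% and 35.9% labelled TNF-α. Pla2g7, which encodes a platelet-activating factor acetylhydrolase, had a mean log2 change of -0.65 with 50 µM labelled IL-1β (adjusted p = 1.3e-20, edgeR). For 0 of the 28 did the test call a different effect of 100 µM under the 2 labels (5 at an unadjusted p under 0.05, edgeR). Of all 10766 genes tested, 1750 passed that unadjusted rule. With 4.68% of all genes called by adjusted p in this test, a count of 0 in so short a list shows nothing about the list.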

How the data were processed

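TagSeq RNA libraries of 3T3 fibroblasts were grouped by the labels for stimulus, SC-514 concentration and time. The authors deposited 1 table of raw counts, whole numbers of reads for each of 22070 genes. Each column was treated as 1 library, although 4 sample records belong to it, and no column was unused. Bowtie2 and the build GRCm38 (mm10) are named in the submitters' processing notes, while how reads were counted, and on which annotation, is not given in the sources used here. Symbols and positions came from GENCODE M21 through 21858 matched identifiers, with 212 unmatched, 29 of them among the genes tested.

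Low genes were removed with filterByExpr by group, libraries were scaled with TMM factors (0.934 to 1.08, up to 2.44 in the 2 shallow libraries) and the counts were fitted in 1 robust quasi-likelihood model over all 41 groups with edgeR 4.0.16 in R 4.3.3 (biological coefficient of variation 0.0799, 123 residual degrees of freedom). P-values were adjusted by the Benjamini-Hochberg method over all genes tested within each of 37 comparisons, at a threshold of 0.05. Levels are counts scaled by library total and TMM factor (CPM), computed here, as mean ± SD over 4 libraries, and log2 changes are those of the model with their SE or 95% interval. The script was tested on simulated data. Floors of 3 counts cover counting error only.

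Libraries of a group were checked for duplicates, and 0 of 246 pairs were identical. The members and gene lists were chosen with earlier results of these data known. The text names all 7 genes, up to 4 genes of the wider list with the smallest adjusted p in each family of comparisons, and the 5 genes most like Ptgs2 and Ptges by Pearson correlation of log2(CPM + 1) group means, without predicted gene models. Motifs were searched in RefSeq promoter windows of GRCm38.p6. The alternatives were DESeq2 1.42.0, its size factors in edgeR (also without the 2 shallow libraries, added after seeing the data), no filter on low counts, only the groups compared, the library number as a block, and leaving out library numbers, the shallow libraries or number 1 of IL-1β 100 µM. The listed genes Hpgd, Krt18, Myod1 and Myog were not analysed here.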

Additional observations from a re-analysis of the deposited data

Results flagged for a closer look

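In groups of 4 libraries, a library was marked where its gap to the nearest other exceeded Dixon's 95% critical share of the group's range. Of 287 groups of the 7 genes 17 were marked (5.92%), and chance marks about 1 in 20. For Ptgs2, number 2 of IL-1β 0 µM 30 min was high at 260.8 CPM against 194 to 202.6 CPM in the other 3 libraries. Number 3 of IL-1β 100 µM 30 min was low at 98.17 CPM against 126.5 to 129.8 CPM. Low as well were number 2 of IL-1β 50 µM 120 min, at 569.6 CPM against 623.7 to 632.9 CPM, and number 2 of TNF-α 50 µM 360 min, at 60.45 CPM against 98.36 to 105.9 CPM. For Ptges, number 1 of TNF-α 100 µM 15 min was at 133.9 CPM against 142.2 to 143.7 CPM. For Ptgs1, number 1 of IL-1β 50 µM 30 min, a shallow library with 1 count of the gene, was at 56.71 CPM against 367.2 to 397.9 CPM.

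For Pla2g4a, number 4 of IL-1β 0 µM 360 min was at 82.74 CPM against 88.68 to 89.88 CPM. For Ptger4, number 3 of IL-1β 25 µM 30 min was at 20.93 CPM against 39.84 to 40.0 CPM, number 4 of TNF-α 100 µM 30 min at 27.01 CPM against 37.35 to 38.61 CPM, and number 2 of TNF-α 25 µM 30 min at 27.01 CPM against 38.83 to 39.52 CPM. For Ptges2, number 3 of IL-1β 50 µM 60 min was high at 80.73 CPM against 63.19 to 65.64 CPM. Number 4 of TNF-α 25 µM 15 min was low at 52.69 CPM against 78.73 to 80.47 CPM, and number 1 of TNF-α 50 µM 120 min, a shallow library, was at 0 CPM against 76.41 to 87.04 CPM. For Ptges3, high values were number 2 of IL-1β 100 µM 120 min at 530.2 CPM against 466.5 to 468.8 CPM, and number 2 of IL-1β 25 µM 120 min at 545.4 CPM against 475.9 to 486.7 CPM. So were number 1 of TNF-α 0 µM 120 min at 550.8 CPM against 469.8 to 473.5 CPM, and number 4 of TNF-α 100 µM 30 min at 520.6 CPM against 461.4 to 468.6 CPM.

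The effect of 100 µM SC-514 on Ptges differed between the stimulus labels (F test over 5 times, adjusted p = 0.01912, edgeR), a call that ended when any 1 library number was left out.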

How the results depend on the processing

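Of 259 results of the 7 genes, 134 were called and 106 of these were called in all 12 alternative analyses, 20 of 20 for Ptgs1, 26 of 28 for Ptgs2, 23 of 25 for Ptges, 16 of 22 for Pla2g4a, 13 of 18 for Ptger4, 7 of 15 for Ptges3 and 1 of 6 for Ptges2. None changed direction while called. Of all genes tested, 0.0372% to 40.0% were called in these 37 comparisons, which share groups. How often calls of other genes held was not counted, so these counts show nothing particular to the 7 genes. DESeq2 ended 14 calls and leaving out 1 library number 13 to 17. Without the filter on low counts 8 calls were lost and 5 made. Leaving out the 2 shallow libraries ended 2 calls, those of Ptges2 at 15 min labelled IL-1β and of Ptges3 at 60 min labelled TNF-α, both with 100 µM. Leaving out number 1 of IL-1β 100 µM at 120 and 360 min ended 5 calls and made 1. The number of genes with a different 100 µM effect between labels was 1 (Ptges), 2 without the filter (Ptges and Ptgs2) and 0 without any 1 library number. Taken over all comparisons, libraries that share a number were not shown to be paired (mean correlation of their deviations 0.0442, with all 4 pairs over 0.1 in 1 of 20 comparisons). Between 100 and 0 µM labelled TNF-α, however, every such correlation was positive, at 0.03 to 0.25. In the other comparisons they ranged from -0.15 to 0.25. What libraries of the same number share was not tested. With the replicate block no call of the 7 genes was lost, and 2 were made, Ptges3 at 120 min labelled IL-1β against unstimulated (adjusted p = 0.0325) and Ptges between the labels at 120 min (adjusted p = 0.0442). With DESeq2's size factors in edgeR, the share of called genes that were higher moved by over 10 percentage points in 19 of 37 comparisons (13 in DESeq2), most at 360 min with 100 µM labelled TNF-α, from 42.4% to 68.7%, where the median log2 change of all genes moved from 0.02 to 0.14. Without the 2 shallow libraries those factors moved 0 comparisons so far. Counts of all genes called moved by over 1.5 times mainly in early comparisons. Labelled IL-1β against unstimulated, the 18 genes of 15 min became 1 to 141, the 103 of 30 min 44 to 272, the 362 of 60 min 228 to 238 and the 1349 of 120 min 854. Labelled TNF-α, the 20 of 15 min became 3 to 270, the 71 of 30 min 46 to 187, the 582 of 60 min 380 to 384 and the 584 of 360 min 292 to 358. Between the labels, the 4 of 15 min became 0 to 60, the 20 of 30 min 6 to 46, the 136 of 60 min 58 to 81, the 110 of 120 min 38 to 59, the 1019 of 360 min 660 and the 1029 over all times 660. The 504 of the difference in the 100 µM effect became 231 to 322, and the 2424 with 100 µM at 30 min labelled IL-1β 1615. The cause of these changes was not tested. Ptger4 rests on 8 to 84 counts in each library but the 2 shallow ones, which limits how small a change of it can be detected.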
